A study of Mus musculus with 2 samples.

Results

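T cell receptor gene segments are the V, D, J and C pieces from which the alpha, beta, gamma and delta receptor chains are assembled. They were taken from the deposited table as every row on chromosome 6, 13 or 14 whose gene name begins with Tra, Trb, Trd or Trg followed by v, d, j or c, together with the whole-locus rows Tcra, Tcrb and Tcrd. The rule gave 101 of 4934 rows (2.05%), of which 98 were single segments and 3 spanned a whole locus. All 98 segments carried a V, D, J or C annotation in RefSeq, and none was a pseudogene.

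In a developing T cell, RAG-mediated recombination joins V to J segments at the alpha and gamma loci, and V to D to J segments at the beta and delta loci, upstream of the constant (C) exons. Each locus has a strong enhancer near its C exons and promoters in front of V, D or J segments, and the delta segments lie inside the alpha locus. STAT5 is the transcription factor that the IL-2 and IL-7 receptors activate. Signals through the IL-7 receptor and STAT5 are known to make the gamma locus accessible to recombination in thymocyte precursors.

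STAT5 binding was profiled by chromatin immunoprecipitation and sequencing (ChIP-seq) with an antibody labelled as anti-STAT5, in an assay that the protocol calls STAT5A. The cells were effector CD8 T cells of C57BL/6 strain from OT-I mice, which carry a transgenic receptor against an ovalbumin peptide. After transfer they were primed in vivo with that peptide and agonists of CD134 and CD137, and were sorted from spleen 4 days later. The IL-2 group was 1 library of cells exposed to 0.5 µg/ml IL-2 for 1 hour, and the control group was 1 library of cells without IL-2. Neither group had a replicate, so nothing could be tested and every difference below describes these libraries only. The OT-I receptor is built from rearranged segments of the Trav14 and Trbv12 families, and its transgene copies, rearranged alleles and germline segments cannot be told apart in these heights.

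The table lists a gene because a binding region was called near it, so it does not show expression. All 5 CD8 T cell markers checked were listed (Cd3e, Cd3d, Cd3g, Cd8a and Cd8b1), as were 0 of 5 B cell and 0 of 4 myeloid markers. Of the NK cell markers 1 of 2 was listed, Klrb1c, and of the gamma delta T cell markers 2 of 3, Trdc and Tcrg-C1. No share of all annotated genes that were listed stands beside these counts, so they do not establish which cells were present.

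The segment rows drew on few regions. The 101 rows held 393 assignments of 52 distinct regions, and 1 region in the middle of the alpha J segments was assigned to 23 rows. Across the table, 94.5% of the assignments of a region to a gene it did not overlap were within 10 kb of that gene, so small segments packed side by side received the same regions and the same mean. The 98 segment rows therefore carried only 42 different sets of values, and rows are not independent. More than 1 region was assigned to 84 of the 101 rows (83.2%), against 33.3% of all rows in the table. All 52 regions were called in the IL-2 library, and 0 of the 101 rows had an interval called in the control library, against 0.243% of all rows. The rows were thus listed through the IL-2 library, which by itself favours a higher deposited height there than in control.

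The deposited value of a row is its mean peak height, in signal units, over its regions. Ratios set the IL-2 height over the control height after 5 was added to each, and log2 ratios are their log2. Over the 101 rows the median height was 20 with IL-2 (quartiles 16.5 and 27.5) and 6 in control (quartiles 5 and 7). Over all 4934 rows it was 20.75 with IL-2 and 5 in control. A ratio of at least 2 was found for 78 of the 101 rows (77.2%), against 83.8% of all rows. With the IL-2 heights divided so that the medians of both libraries over the table were equal, it was found for 6 of the 101 (5.94%), against 5.98% of all rows. With the control heights multiplied instead, it was found for 7 of the 101, against 14% of all rows, since 5 is added after the scaling. The median log2 ratio was 1.19 for the segments and 1.42 for all rows, and with the IL-2 heights divided it was -0.13 for the segments and 0.09 for all rows. Under either scaling, the IL-2 height was the higher one in 35 of the 101 rows (34.7%) and in 58.7% of all rows. This division, the scaling used in all that follows, shifted the median of all rows by -1.33, and the sources used here do not give the authors' own scaling. With and without the scaling, the median of the segments lay below that of all rows.

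Heights of single regions could be solved from the overlapping row means for 33 of the 52 regions. These had a median of 18 with IL-2 and 5 in control, against 18 with IL-2 and 4 in control for the 2485 regions of the table that could be solved. The ratio reached 2 at 25 of the 33 (75.8%), and at 80.2% of the 2485. The heights were unequally spread. Only 8 of the 33 regions reached a height of 40 with IL-2 (24.2%, against 16.7% of the 2485), and the other 25 lay between 9 and 35. In control those 8 lay between 4 and 8, and the other 25 between 1 and 13. Over all 33 regions 15 were higher with IL-2 and 18 lower after scaling (45.5% higher, against 55.1% of the 2485), so the direction rests on the scaling. The 8 tall regions had log2 ratios of 0.60 to 1.34 after scaling, but they were picked by their IL-2 height, which largely fixes that sign.

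**Figure D1:**
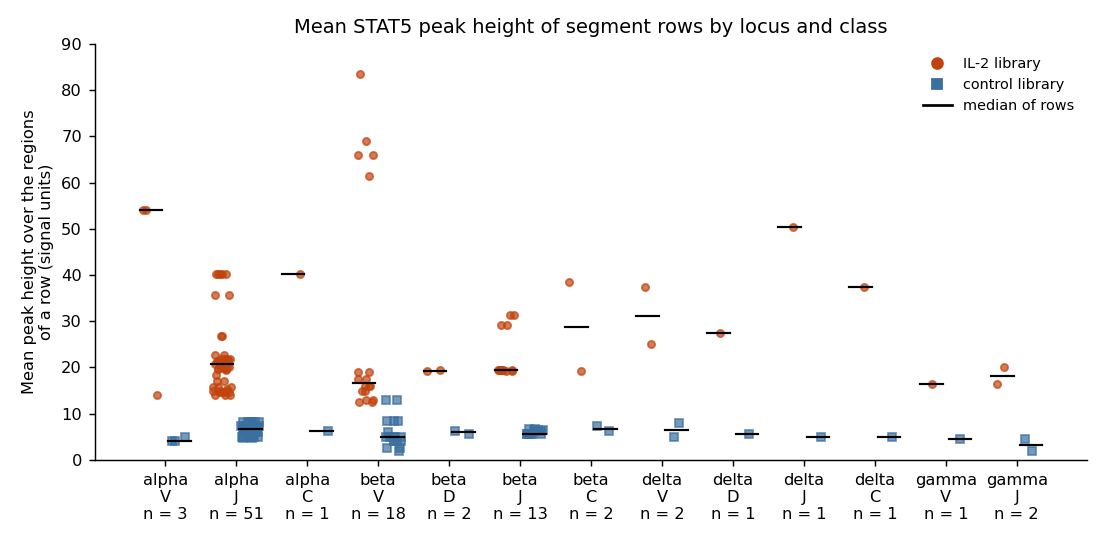
Mean STAT5 peak height of each segment row (vertical axis, signal units) by locus and segment class, in the IL-2 library (circles) and, to its right, the control library (squares); bars are medians of rows and n is the number of rows. The beta V rows spread most, between 12.5 and 83.5 with IL-2, while the alpha J rows crowd around 20.75; rows that share regions overlie each other, and there is 1 library per group.

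The classes differed in how many of their segments were listed. Of segments annotated in RefSeq without pseudogenes, the rows covered 24 of 148 V segments (16.2%), 3 of 4 D segments, 67 of 70 J segments (95.7%) and 4 of 8 C segments. No share of all annotated genes stands beside these. Packed J segments shared their regions: only 16 of the 67 were the nearest listed segment to a region, against 15 of 24 V, 3 of 3 D and 4 of 4 C segments. The rule missed some rows spelled otherwise, and with these 30 V and 7 C segments were listed. By locus the listed share was 55 of 166 for alpha, 35 of 39 for beta, 5 of 10 for delta and 3 of 15 for gamma. With the rows spelled otherwise it was 56 of 166 for alpha and 11 of 15 for gamma, and the low gamma share thus came from the spelling. The share for alpha by the rule joins 51 of 51 J segments and 3 of 114 V segments.

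The ranges of row heights overlapped between the classes. V rows had a median of 17.5 with IL-2 (12.5 to 83.5) and 5 in control (2 to 13). D rows had 19.4 with IL-2 (19.2 to 27.5) and 5.6 in control (5.5 to 6.33). J rows, the most numerous class, had 20 with IL-2 (14 to 50.5) and 6.33 in control (2 to 8.25). C rows had 37.95 with IL-2 (19.2 to 40.25) and 6.29 in control (5 to 7.25). The C rows held the highest class median with IL-2, but only 4 rows stand behind it and each averages 4 to 6 regions, most of them also assigned to D or J rows. A ratio of at least 2 was found for 19 of 24 V, 3 of 3 D, 49 of 67 J and 4 of 4 C rows, against 83.8% of all rows.

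By locus, the delta rows had the highest median, 37.4 with IL-2 and 5 in control over 5 rows. Trdc and Trdv5 both held this value. The alpha rows had 20.75 with IL-2 and 6.67 in control over 55 rows. The beta rows had 19.4 with IL-2 and 5.6 in control over 35 rows. The gamma rows had 16.5 with IL-2 and 4.5 in control over 3 rows. With each solved region counted once, the median with IL-2 was 17 for alpha and delta together, 18 for beta and 20 for gamma. These medians rest on 21, 11 and 1 regions, and do not repeat the order of the rows. Control heights were 2 to 4.5 for the gamma rows of the rule and 5 to 8 for the delta rows. Both lay within the range of the beta rows, 2 to 13. Gamma segment rows spelled Tcrg- had 11 to 38.67 with IL-2 and 2 to 6 in control, which overlaps the delta rows. The 5 delta rows rested on 8 regions, all of them also assigned to Tcra. The whole-locus rows were close to each other: Tcrb had 31.22 with IL-2 and 5.22 in control over 23 regions, Tcrd 27.77 with IL-2 and 5.39 in control over 13 regions, and Tcra 27.35 with IL-2 and 5.65 in control over 26 regions. All 13 regions of Tcrd were among those of Tcra. The highest peak was 135 in Tcrb, 87 in Tcrd and 98 in Tcra, so the locus means hide a few tall regions among many low ones.

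At the beta locus on chromosome 6 (mm10) the tallest region with a solved height lay at position 41554512. It stood between Trbc2, the second beta constant segment, and Trbv31, an inverted V segment whose end was 3181 bases away. Its height was 105 with IL-2 and 7 in control (log2 ratio 3.20), above 98.4% of the solved regions of the table. The beta enhancer is known to lie in the interval between Trbc2 and Trbv31, but no file used here gives its position, so overlap was not tested. A second region in this interval, at 41550024 and 1843 bases past the end of Trbc2, had 18 with IL-2 and 10 in control. The low one of these neighbours had the higher control height. Trbv31, listed for both, had a mean of 61.5 with IL-2 and 8.5 in control, and Trbc2 had 38.5 with IL-2 and 7.25 in control over 4 regions.

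In front of the beta D-J-C clusters, a region 529 bases upstream of Trbd1, the first beta D segment, had 45 with IL-2 and 5 in control (log2 ratio 2.32). A promoter that drives germline transcription is known to lie just upstream of Trbd1. The remaining 4 regions of the clusters could be solved only in pairs. The pair 98 bases upstream of Trbj1-1 and 48 bases upstream of Trbj1-5 had a mean of 10.5 with IL-2 and 5.5 in control. The pair 1067 bases upstream of Trbc1 and 627 bases upstream of Trbd2 had a mean of 15.5 with IL-2 and 6 in control. Thus the region at Trbd1 was above the mean of each pair, and the second D segment had no region of that height. All 17 D, J and C rows of the beta locus rested on 7 regions, which is why their means lay between 19.2 and 38.5.

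The beta V segments ranged more widely. Trbv1, the segment farthest upstream, had a mean of 83.5 with IL-2 and 6 in control over 2 regions (log2 ratio 3.01), and this was the highest row of all segments. One of these regions lay 256 bases upstream of Trbv1 and the other 698 bases upstream of Moxd2, a neighbouring gene outside the V array. Their heights with IL-2 were 135 and 32, but the table does not determine which was which. A region 1309 bases upstream of Trbv19 had 66 with IL-2 and 5 in control (log2 ratio 2.83). A region 28 bases past the end of Trbv21 had 69 with IL-2 and 5 in control (log2 ratio 2.89). Trbv20, which shares the first of these, had the same mean of 66. These regions stood apart from the rest of the V array, where solved heights with IL-2 were 9 to 19.

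Some of the low beta V regions lay just upstream of a segment start, and others did not. A region 251 bases upstream of Trbv15 had 16 with IL-2 and 4 in control, and one 103 bases upstream of Trbv16 had 9 with IL-2 and 1 in control. No solved region of the table was lower with IL-2 than the one at Trbv16. Trbv15 and Trbv16 shared both regions, and their mean of 12.5 with IL-2 and 2.5 in control was the lowest with IL-2 of all segment rows. A region 329 bases upstream of Trbv23 had 13 with IL-2 and 4 in control, and one 220 bases past the end of Trbv17 had 16 with IL-2 and 2 in control. The regions around Trbv5 had heights of 17 and 13 with IL-2, in an order the table does not determine, with a mean of 5 in control. A region 341 bases from the pseudogene Trbv11, listed for Trbv12-1 and Trbv13-1, had 16 with IL-2 and 4 in control. Another 4 regions, between Trbv6 and Trbv10, lay nearest to V pseudogenes and were listed only for the Tcrb row, with a mean of 19.25 with IL-2 and 3.75 in control.

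The region 63 bases upstream of Trbv12-1 had 19 with IL-2 and 13 in control (log2 ratio 0.42), the lowest ratio among the 33 solved regions. Its control height was the highest among them. A control height of 10 or more was found at 3 of the 33 (9.09%), against 0.684% of the 2485 solved regions of the table. Those at Traj47 (11) and past Trbc2 (10) were also among the 3. The region at Trbv12-1 was the only one of Trbv12-2 and Trbv13-2, and it was shared by Trbv12-1 and Trbv13-1. Trbv12 is a family used by the OT-I receptor, and the copy number of its segments was not measured here.

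**Figure D2:**
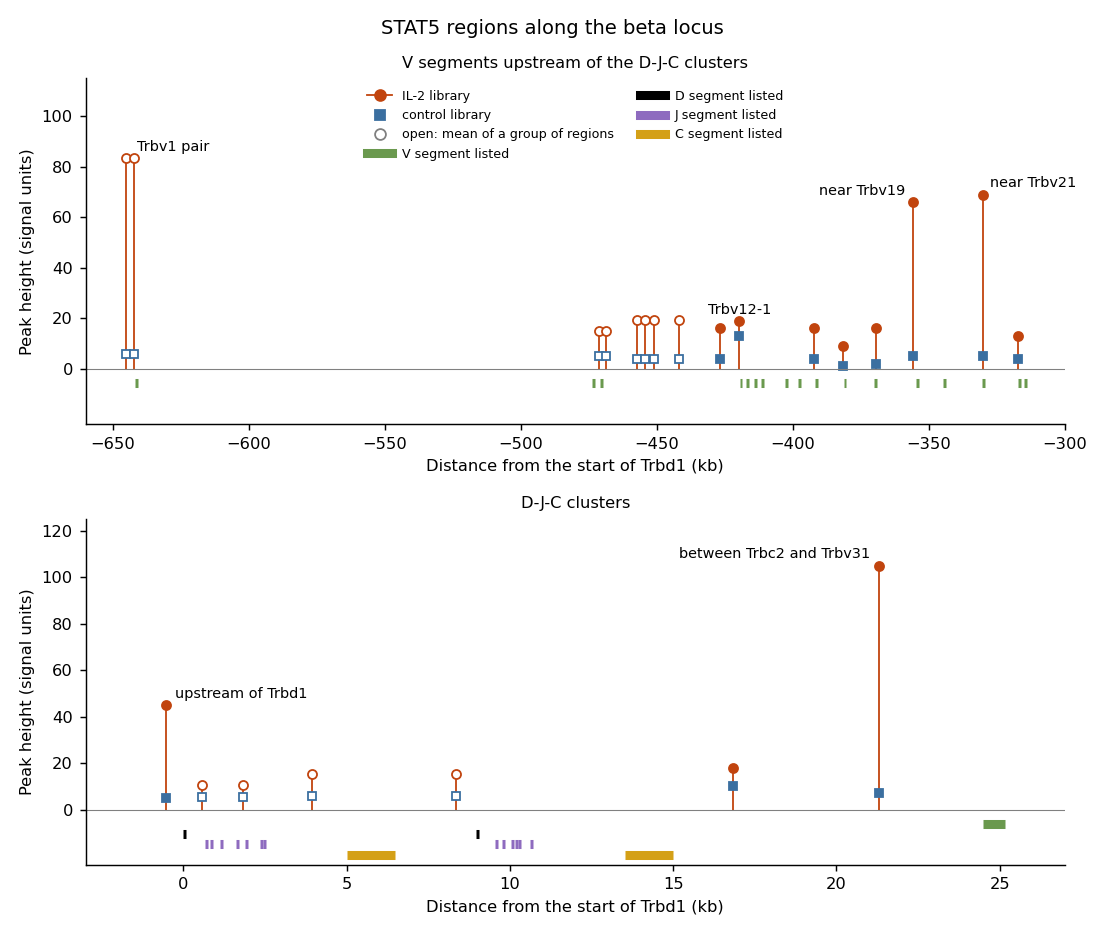
STAT5 peak heights (vertical axis, signal units) at regions along the beta locus, by distance from the start of Trbd1 in kb, with the V segments above and the D-J-C clusters below; open symbols are means of regions that could not be solved singly, and coloured marks under 0 are listed segments. The region between Trbc2 and Trbv31 reaches 105 in the IL-2 library (circles) and 7 in the control library (squares), while at Trbv12-1 they are 19 and 13.

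At the alpha locus on chromosome 14 the tallest region lay 745 bases upstream of Trac, the alpha constant segment, at 54219776. Its height was 98 with IL-2 and 7 in control (log2 ratio 3.10), above 98.1% of solved regions. On the other side of Trac, 8650 bases past its end and before Dad1, a region at 54232848 had 26 with IL-2 and 3 in control (log2 ratio 1.95). The alpha enhancer is known to lie between Trac and Dad1, and overlap with it was not tested for want of its position. Thus the taller region lay in the stretch between the last J segments and Trac. Dad1, a subunit of the oligosaccharyltransferase and the gene that follows the locus, was listed for these same 2 regions, with a mean of 62 with IL-2 and 5 in control.

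The alpha J segments held more regions per length than the other stretches measured at that locus. Their 63.8 kb held 11 regions (17.2 per 100 kb), against 3 regions in the 1549.7 kb of the V array (0.194 per 100 kb). The beta stretch from 1 kb upstream of Trbd1 to the end of Trbc2 held 5 regions in 16.0 kb (31.3 per 100 kb). In the beta V array from Trbv2 to Trbv30 there were 14 regions in 234.4 kb (5.97 per 100 kb). Between Trbv30 and the region at Trbd1, a stretch of 250.2 kb that holds trypsin genes, the table had 0 regions assigned to a receptor segment or locus row. Only regions near a listed gene are in the table, and stretches of dense small segments offer more rows to which a region can be assigned. The whole-locus rows Tcra and Tcrb span all these stretches, however. They were assigned all 26 alpha and delta regions and all 23 beta regions, among them 8 in no segment row. A region in these stretches thus did not need a nearby segment to be listed.

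The 11 alpha J regions were low, 11 to 35 with IL-2 (median 17) and 3 to 11 in control (median 6). With the medians of the libraries made equal, only 2 of the 11 were higher with IL-2, those at Traj49 and Traj11. The tallest lay 88 bases past the end of Traj49, with 35 with IL-2 and 8 in control. Next was a region 819 bases past Traj11, with 26 with IL-2 and 6 in control. A region 14 bases upstream of Traj37 had 17 with IL-2 and 5 in control. The lowest ratios of the group were at Traj47 (19 with IL-2 and 11 in control) and 143 bases upstream of Traj41 (16 with IL-2 and 9 in control). The other regions had 22 with IL-2 and 8 in control at Traj6, 17 with IL-2 and 6 in control at Traj19 and Traj20, and 15 with IL-2 and 7 in control at Traj4. Those at Traj56, Traj34 and Traj59 had 11 to 13 with IL-2 and 3 to 5 in control. Of the 11 regions 7 lay within 250 bases of the start of a listed J segment, where the median spacing of J starts is 945 bases.

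The alpha J rows each hold 1 to 5 regions (median 4), some of them outside these 11. They had between 14 (Traj25, Traj26 and Traj27) and 40.25 with IL-2, and between 4.8 and 8.25 in control. The highest were the rows from Traj6 to Traj2, all with 40.25 with IL-2 and 7 in control, because the region upstream of Trac was among their 4 regions. A ratio of at least 2 was found for 33 of the 51 J rows (all rows, 83.8%). Each of the 11 regions was assigned to 10 to 23 rows, so no J row had a region of its own.

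High control heights were more frequent here than in the table as a whole. Of the 33 solved regions 8 had a control height of at least 8 (24.2%), against 4.99% of the 2485. They lay at Trbv12-1, past Trbc2, upstream of Trdv4 and Trdv5, and at Traj49, Traj47, Traj41 and Traj6. No input library was used here, so local background and binding before IL-2 cannot be told apart.

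In the alpha V array a region 137 bases past the end of Trav15-1-dv6-1 had 54 with IL-2 and 4 in control (log2 ratio 2.71). It was the only region of Trav15-1-dv6-1 and of Trav14-1, a member of a V family used by the OT-I receptor. This region lay nearer to Trav15-1-dv6-1 than to Trav14-1. Its control height equalled the median of the solved regions of the table in control, 4. Trav17 had 14 with IL-2 and 5 in control, from a region 5039 bases upstream. The remaining region of the V array had 15 with IL-2 and 2 in control and lay inside Trav13-5, whose row is spelled B230359F08Rik in the table.

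The delta segments held the next tall regions. Between Trdj2, a J segment, and Trdc, the delta constant segment, a region 1787 bases past Trdj2 at 54138624 had 87 with IL-2 and 6 in control (log2 ratio 3.06). The delta enhancer is known to lie between the last delta J segment and Trdc, and overlap was not tested. A region 79 bases upstream of Trdv5, an inverted V segment behind Trdc, had 61 with IL-2 and 8 in control (log2 ratio 2.34). Inside Trdc a region had 14 with IL-2 and 4 in control. The tall regions thus flanked Trdc while the one within it was low. Trdj2 averaged the first and the last of these, with 50.5 with IL-2 and 5 in control, and Trdc and Trdv5 each had 37.4 with IL-2 and 5 in control over 5 regions. A region between Trdv5 and the alpha J segments, nearest to the pseudogene Traj61, had 14 with IL-2 and 4 in control. Trdd1 was listed for 2 regions upstream of it, with heights of 37 and 18 with IL-2 and a mean of 5.5 in control. Trdv4 had 25 with IL-2 and 8 in control, from a region 9292 bases upstream. Farther upstream 3 regions listed only for Tcrd and Tcra had a mean of 15.3 with IL-2 and 4.33 in control.

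**Figure D3:**
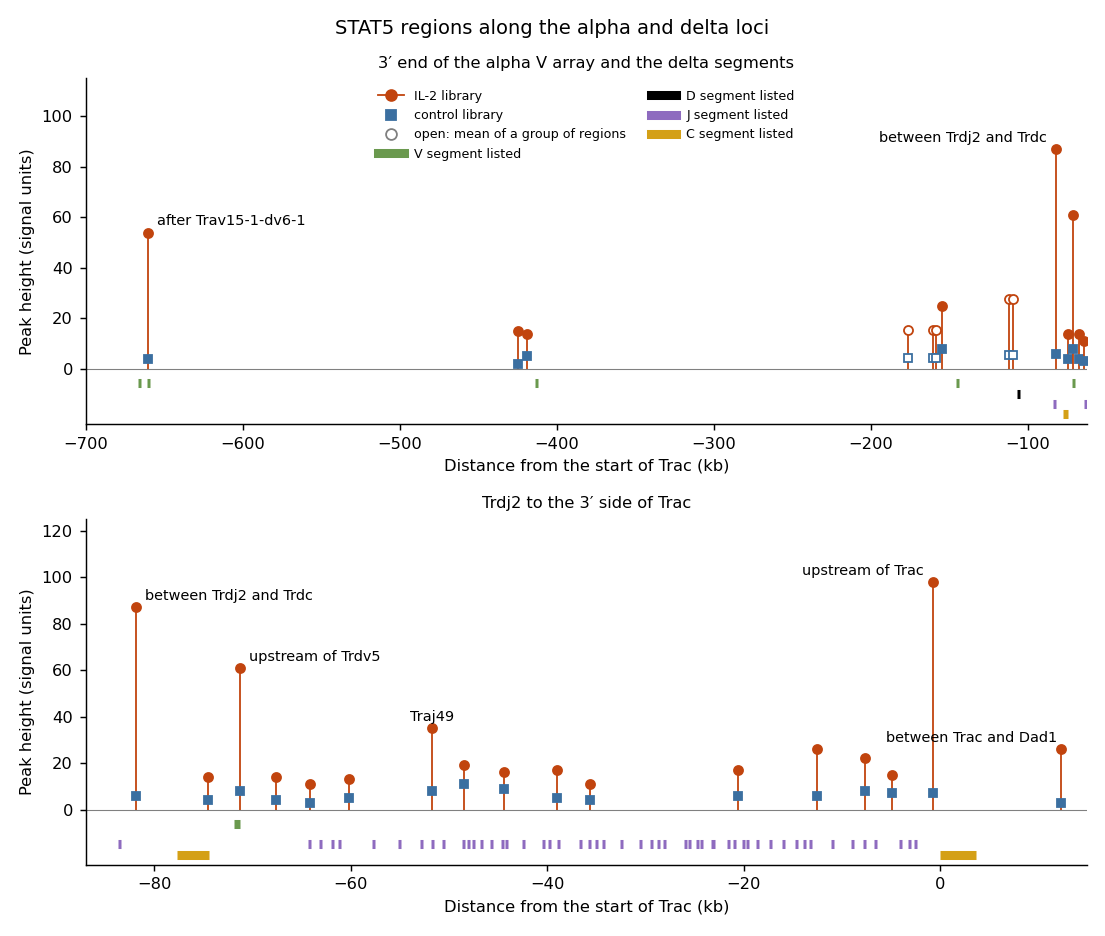
STAT5 peak heights (vertical axis, signal units) at regions along the alpha and delta loci, by distance from the start of Trac in kb, with the 3′ end of the V array and the delta segments above and the stretch from Trdj2 past Trac below; open symbols are means of regions that could not be solved singly, and coloured marks under 0 are listed segments. The regions upstream of Trac (98), between Trdj2 and Trdc (87) and upstream of Trdv5 (61) exceed the J regions between them (11 to 35) in the IL-2 library (circles); control heights (squares) of those J regions are 3 to 11.

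At the gamma locus on chromosome 13 the regions next to J segments had IL-2 heights near the median of 18 of the solved regions. A region 327 bases upstream of Trgj1 had 20 with IL-2 and 2 in control (log2 ratio 1.84), and its ratio stayed above 0 after scaling (0.49). Regions lay also 296 bases upstream of Trgj4 and 78 bases upstream of Trgv2. Their heights were 18 and 15 with IL-2, in an order the table does not determine, with a mean of 4.5 in control. STAT5 is known to bind the germline promoters of gamma J segments in thymocytes and their precursors, and here 2 of the 4 annotated gamma J segments had a region within 1 kb upstream.

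A further 9 gamma rows are spelled Tcrg or Tcrg- and fall outside the name rule. They added 3 regions. The tallest, 3977 bases past the end of Tcrg-C4, a constant segment, had 83 with IL-2 and 6 in control, above 96.6% of solved regions. It was also listed for the neighbouring gene Stard3nl. Gamma enhancers are known to lie downstream of the constant segments, and overlap was not tested. A region between Tcrg-V7 and Tcrg-V4 had 23 with IL-2 and 5 in control, and one beyond Tcrg-C2 had 11 with IL-2 and 6 in control. The gamma locus as a whole (Tcrg, 6 regions) had a mean of 28.33 with IL-2 and 4.67 in control, close to the other whole-locus rows.

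**Figure D4:**
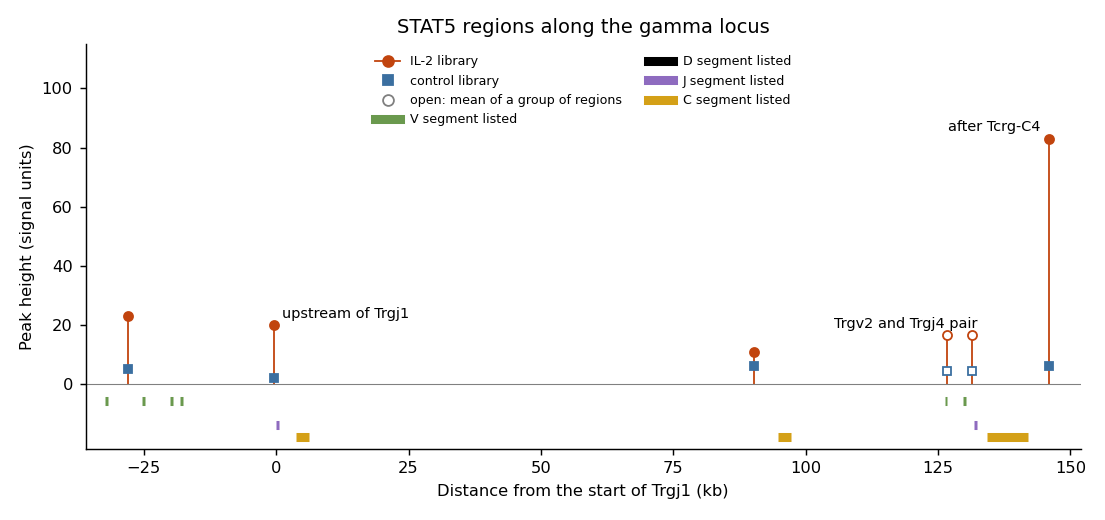
STAT5 peak heights (vertical axis, signal units) at the 6 regions of the gamma locus, by distance from the start of Trgj1 in kb, including regions of rows spelled Tcrg; open symbols are the mean of a pair, and coloured marks under 0 are listed segments. The region after Tcrg-C4 has 83 in the IL-2 library (circles) and 6 in the control library (squares), and the others have 11 to 23 in the IL-2 library.

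Many regions were close to a segment start. A listed segment began within 1 kb of 28 of the 52 regions (53.8%), and a listed gene began within 1 kb of 27.5% of all 5703 regions. Segments are far more closely spaced than genes, so these shares are not on an equal footing. Each region was placed at a single position without its width, so it may reach over segments beside that position. By this position only 2 regions lay inside an annotated segment, in Trdc and in Trav13-5. The sequence of the regions was not used here, and STAT motifs were not searched.

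Among genes that act with the receptor, the complex and its coreceptors were listed for 6 of 8 members, 5 of them with a ratio of at least 2 (all rows, 83.8%). Cd8a, a chain of the CD8 coreceptor, had 42.25 with IL-2 and 6.25 in control over 4 regions. Cd247, the zeta signalling chain, had 46.5 with IL-2 and 8 in control over 2 regions. Cd3d and Cd3g, signalling chains that share 1 region, had 19 with IL-2 and 5 in control, and Cd3e had 15 with IL-2 and 5 in control. Cd8b1 had 13 with IL-2 and 4.5 in control. Cd8a and Cd247 had a highest peak of 107 and 81, in the range of the tall receptor regions, and the CD3 genes lay in the range of the alpha J regions.

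Genes of V(D)J recombination were listed for 2 of 12 members and neither had a ratio of at least 2 (all rows, 83.8%). Lig4, the ligase that closes recombined ends, had 11 with IL-2 and 5 in control, and Hmgb2, a DNA-bending cofactor of RAG, had 14 with IL-2 and 5 in control. Of 25 genes inside or beside the loci 7 were listed. The share of all annotated genes that were listed is not given here. The counts of 6 of 8, 2 of 12 and 7 of 25 listed therefore have no base rate beside them. Moxd2, Dad1, Prss2 and Stard3nl shared regions with receptor rows, while Oxa1l, Slc7a7 and Mrpl52 had regions outside the receptor loci, each with a mean of 14 with IL-2 and 3 to 5 in control.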

How the data were processed

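The authors deposited 1 table of genes near STAT5 regions, with the signal height of each gene's peaks in both libraries. The submitters' processing notes name BWA and mm10. The sources used here give no peak caller, depth or scaling, so counting error is unknown. The table also flags called intervals and counts regions per gene, as deposited by the authors. It held 0 columns of other samples.

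Region positions were computed from gene start, strand and distance, and each of 5714 interval names had the same position from all genes it was listed for. All distances and gaps given run to this single position, and the width of a region was not used. Single heights were derived by exact row reduction of the row means in Python 3.11.15, a step tested on simulated data. Control means in 3 rows elsewhere in the table were not whole sums, so their groups of genes were left unsolved for control. RefSeq GRCm38.p6, the mm10 build, matched 101 of 101 rows by identifier, start and end.

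Ratios used a pseudocount of 5. Members and lists were chosen with earlier results of these data known. The genes named were the segments nearest to a region or deciding its height, those of highest and lowest IL-2 height in each locus, and the listed members of 3 lists (receptor complex, V(D)J recombination, neighbours). Alternatives were pseudocounts of 1 and 10, ratios of 1.5 and 4, equal medians, a height filter, the highest peak, distinct regions, merged positions, the nearest segment and 5 kb.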

Additional observations from a re-analysis of the deposited data

How the results depend on the processing

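No paired analysis was possible because neither group had a second sample. The count of 78 rows with a ratio of at least 2 was 33 with a pseudocount of 10 (32.7%, and 56.4% in the whole table), 11 for a ratio of 4 or more (10.9%, and 23.1% in the whole table), 6 with equal medians by dividing the IL-2 heights (5.94%, and 5.98% in the whole table), 7 with equal medians by multiplying the control heights (14% in the whole table), 44 of the 47 rows at or above the table's median height, and 25 of 33 solved regions. The median log2 ratio of 1.19 was 1.63 with a pseudocount of 1, 0.89 with a pseudocount of 10, -0.13 with the IL-2 heights divided, -0.21 with the control heights multiplied, 1.59 when a row's highest peak replaced its mean with IL-2, and 1.63 for rows at or above the median height. Of the 52 regions 19 had no solved height, and 14 of the 33 solved ones had an IL-2 height of at least 20 (42.4%, against 46.2% of the 2485). Counting only the segment nearest to a region left 15 of 24 V, 16 of 67 J, 14 of 55 alpha and 16 of 35 beta segments. The filters and the nearest-segment rule hold fewer items by construction. The height filter picks rows by the IL-2 height, the numerator of the ratio, which favours higher ratios. Its share in the whole table is not given here. Equal medians remove any overall difference between libraries. A larger pseudocount pulls ratios towards 1, and a cutoff of 4 cannot pass more rows than 2. A row's highest peak is not below its mean with IL-2. For the solved regions the cause was not tested. Multiplying the control heights, adding the gamma rows spelled Tcrg, counting solved regions with a ratio of 2, dropping whole-locus rows and using all annotated segments were chosen after seeing the data. Library depth is unknown, so no height carries a counting interval.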

Other observations

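The alpha J regions were not evenly placed. Neighbouring regions were a median of 4464 bases apart, but between those near Traj34 and Traj19 there were 15040 bases with no region, across 14 listed J segments. Those J rows were listed through regions on one or both sides of the gap.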
